A study of Rattus norvegicus and Mus musculus with 18 samples.

Results

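The genes described here encode zinc-dependent proteases of the MMP, ADAM and ADAMTS families that act outside the cell or at its surface, and the inhibitors of these enzymes. Matrix metalloproteinases (MMPs) cut collagens and other matrix proteins and are made as inactive precursors. ADAMs are mostly membrane proteins, of which the catalytic ones release growth factors, receptors and adhesion molecules from the cell surface, while ADAMTS proteases are secreted and cut proteoglycans, procollagens and other matrix proteins. ADAMTSL proteins resemble ADAMTS proteases without the catalytic domain, and the tissue inhibitors of metalloproteinases (TIMPs) bind the active enzymes. In the embryonic kidney, MMPs and their inhibitors are known to influence branching of the ureteric bud in culture. The members were all genes whose only annotated symbol was Mmp, Timp, Adam, Adamts or Adamtsl with a number and at most 1 letter. The mouse array held 70 such genes of 18193 with a symbol of their own, on 124 of 45037 probe sets. The rat arrays held 40 of them, namely 25 of 4736 genes on array A, 9 of 4281 on array B and 11 of 4713 on array C. Both species together gave 75 symbols, of which 35 were on an array of each species.

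RNA came from dissected metanephric kidneys, in which the ureteric bud, an epithelial tube, branches into the metanephric mesenchyme. Mouse tissue of stage E12.5 was separated into bud tips (about 1000 pooled), bud stalks (about 350) and mesenchyme (about 300), and rat tissue of stage E13.5 into whole buds (about 1200) and mesenchyme (about 240), after 10 min in trypsin and DNase. The labels give no strain, allele or treatment other than this dissociation, and each tissue was 1 RNA pool labelled 2 times. The p-values therefore measure only the spread of labeling and hybridisation, not that between animals. Each tissue has 2 arrays on the mouse design and on each rat design, and this small number limits the precision. Values are quantile-normalised Affymetrix intensities, and differences are on the log2(intensity + 16) scale, which understates those of dim genes. In bulk RNA, fewer cells of a type and less RNA per cell cannot be told apart.

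The labelled tissues were set against markers before the proteases were read. The summed intensity of 8 epithelial markers was 18954 to 19367 in tips, 12035 to 12251 in stalks and 516 to 587 in mesenchyme. That of 8 stromal markers was 1457 to 1687 in tips, 13198 to 13382 in stalks and 11731 to 11765 in mesenchyme. The stalk arrays thus carried the epithelial markers together with a summed stromal level above that of mesenchyme, where 1 of the 8 stromal markers was called lower and 2 higher in stalks than in mesenchyme. The part of this in the stalk values below was not tested. Sums over 10 endothelial markers were 1111 to 1176 in tips, 1985 to 2095 in stalks and 2967 to 2998 in mesenchyme, and those over 11 macrophage and leukocyte markers were 532 to 566, 809 to 846 and 1158 to 1250 in the same order. The 8 nephron progenitor markers summed to 765 to 869 in tips, 2436 to 2437 in stalks and 6632 to 6657 in mesenchyme, and the 8 markers of ureteric mesenchyme and smooth muscle to 726 to 773 in tips, 5162 to 5259 in stalks and 2980.1 to 2994 in mesenchyme. For 4 erythroid markers the sums were 8679.7 to 9196 in tips, 16442 to 16520.0 in stalks and 21994 to 22329 in mesenchyme. The part of these cell types in the results was not tested. In rat, the second bud labeling had a 3' to 5' ratio of the Gapdh control of 4.26 to 5.28 on the 3 designs, against 1.25 to 1.47 on the other rat arrays, so the differences of the named rat genes are also given without it.

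A gene was represented by its brightest single-symbol probe set and tested if its mean in at least 1 tissue reached the median of its table, an intensity of 49.5 in mouse. That left 38 of the 70 mouse genes, made up of 8 of 18 Mmp, 3 of 4 Timp, 13 of 28 Adam, 12 of 15 Adamts and 2 of 5 Adamtsl genes. Calls needed an adjusted p under 0.05 (limma, Benjamini-Hochberg over all tested probe sets) together with a 2-fold difference or more, and in mouse the fold alone decided, since all tested probe sets past 2-fold in the 3 tissue comparisons (1098, 1954 and 663) also had an adjusted p under 0.05. In tips against stalks 7 members were called lower, and 3.63% of all tested probe sets were called lower there. These were Mmp2, Timp1, Timp3, Adam12, Adam19, Adamts12 and Adamts20. In tips against mesenchyme 8 were called lower, the same 7 and Adamts1, beside 4.27% of all tested probe sets. In stalks against mesenchyme Adamts12 alone was called lower, beside 0.426% of tested probe sets. As represented, 0 members were called higher in any of these 3 comparisons, where 0.953%, 3.9% and 2.34% of tested probe sets were called higher. A second probe set of Adamts16 was called higher in tips and is described with that gene.

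**Figure D1:**
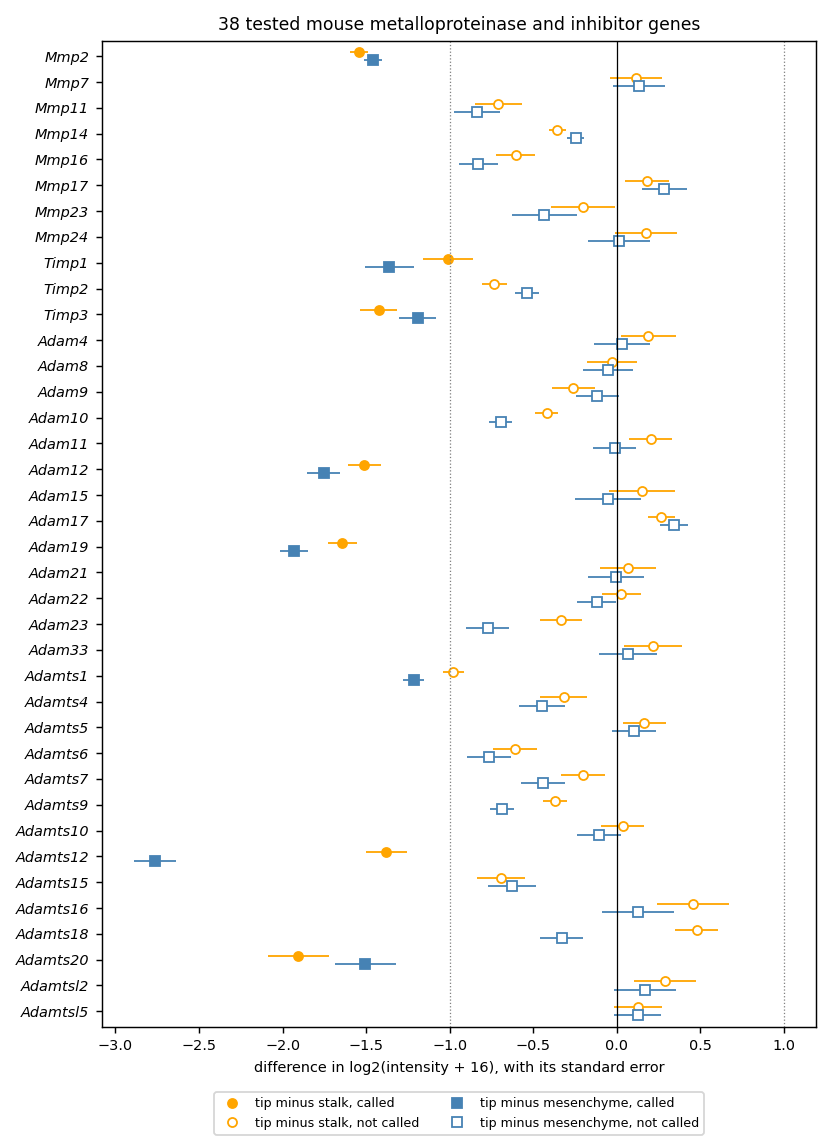
Difference in log2(intensity + 16) of the 38 tested mouse members, tip minus stalk (circles) and tip minus mesenchyme (squares), with standard errors from limma (2 arrays per tissue); filled symbols were called and dotted lines mark 2-fold. All filled symbols lie to the left of 0, with Adamts12 farthest left at -2.76 against mesenchyme, and Adam17 lies to the right of 0 in both comparisons.

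Without the fold threshold, 16 of the 38 tested members were lower and 2 higher in tips than in stalks at an adjusted p under 0.05 (limma), beside 14.8% and 13.9% of all tested probe sets. Against mesenchyme, 19 were lower and 1 higher in tips, beside 17.6% and 16.1% of probe sets. Between stalks and mesenchyme, 5 were lower and 0 higher in stalks, beside 4.92% and 8.16%. At an unadjusted p under 0.05, limma gave 19, 21 and 10 members in either direction in the 3 comparisons. The share of all tested probe sets at that unadjusted threshold was not computed, so these counts stand without a background. The median log2 difference of the tested members was -0.23 for tips against stalks, -0.38 for tips against mesenchyme and -0.15 for stalks against mesenchyme, while the medians of all tested probe sets were 0.06, 0.01 and -0.05. Over all 70 measured members, dim ones included, the 3 medians were 0.01, -0.05 and -0.04. Of the 38 tested members, 4 had a tip mean under the intensity for testing and passed it through another tissue, so that some difference was built in (Adam23, Adamts12, Adamts15 and Adamts20). With 1 array left out, 7 of 18 tip and stalk differences lost their adjusted p under 0.05 in at least 1 case (Adam17, Adamts6, Adamts9, Adamts15, Adamts18, Mmp11 and Mmp16), as did 4 of 20 between tips and mesenchyme (Adam17, Adamts4, Adamts7 and Adamts15). Of the 5 between stalks and mesenchyme, 4 did so (Adam10, Adamts1, Adamts9 and Adamts18), leaving Adamts12.

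Among the TIMPs, Timp1, Timp2 and Timp3 were all lower in tips than in stalks and in mesenchyme, and Timp4 was dim throughout. Timp1, a secreted inhibitor of most MMPs, had intensities of 69.02 and 98.6 in tips, 177 and 189 in stalks and 237 and 239 in mesenchyme. All 3 tissues were separate, with tips lowest and mesenchyme highest. The tips were 2.01-fold lower than stalks (log2 difference -1.01, SE 0.15, adjusted p = 0.00105, limma) and 2.57-fold lower than mesenchyme (log2 difference -1.36, SE 0.15, adjusted p = 0.000113). The call against stalks ended without the first tip array (-0.78) or the second stalk array (-0.96), with a pseudocount of 64 (-0.75), and in a test against 1.5-fold (adjusted p = 0.178).

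Timp3, the TIMP that binds to the matrix and also inhibits ADAM17 and several ADAMTS proteases, read 73.6 and 74.98 in tips, 225 and 228 in stalks and 179 and 202 in mesenchyme. Stalks were highest here and tips again lowest, with no overlap. Its difference was -1.42 from stalks (SE 0.11, adjusted p = 2.51e-05, limma) and -1.19 from mesenchyme (SE 0.11, adjusted p = 4.21e-05). The mean of all its probe sets gave -0.96 from mesenchyme, under 2-fold. The other 3 Timp3 probe sets were also lower in tips, with log2 differences of -1.34, -1.09 and -1.01 from stalks and -1.28, -0.70 and -0.68 from mesenchyme. Timp2, which inhibits MMPs and also takes part in activation of pro-MMP2 by MMP14, read 566 and 608 in tips, 937 and 1036 in stalks and 815 and 905 in mesenchyme. Tips lay below both other tissues, by less than 2-fold (log2 difference -0.73, SE 0.072, adjusted p = 0.000110 from stalks and log2 difference -0.54, SE 0.072, adjusted p = 0.000431 from mesenchyme, limma). Of the 6 Timp2 probe sets, 5 were tested, and the difference from stalks was between -0.73 and -0.18 on these. Stalks against mesenchyme did not pass for Timp1, Timp2 or Timp3 (adjusted p = 0.176, 0.129 and 0.233). Timp4 was not tested in mouse, with intensities of 32.6 to 53.0 over the 6 arrays.

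Promoters are shown for Timp1, Timp3 and Adam19, because these 3 members were called lower in mouse tips, had a rat difference below 0 and are in the promoter table. Mmp2 met the first 2 of these conditions and is named only. The rat sequences, from RefSeq on build GRCr8, run from 250 bases before to 50 after each gene's start and are written 5' to 3' along the gene. Mouse promoters were not used here. Capitals mark the AP-1 motif TGANTCA and the GC box GGGCGG on either strand. Of the 8 members called in any mouse or rat comparison, 7 had a promoter in the table (all but Mmp2), and 6 of these 7 (85.7%) held GGGCGG, beside 34.9% of all 27457 promoters and 51.1% of the 47 promoters of members. TGANTCA was in 1 of the 7 (14.3%), the Adam19 promoter, beside 7.33% of all promoters and 17% of the promoters of members (8 of 47). A match describes these letters in this window and is not a bound site. The Timp1 sequence lies at chrX:3771073-3771372 on the minus strand, Timp3 at chr7:19459509-19459808 on the minus strand and Adam19 at chr10:30992511-30992810 on the plus strand.
Timp1: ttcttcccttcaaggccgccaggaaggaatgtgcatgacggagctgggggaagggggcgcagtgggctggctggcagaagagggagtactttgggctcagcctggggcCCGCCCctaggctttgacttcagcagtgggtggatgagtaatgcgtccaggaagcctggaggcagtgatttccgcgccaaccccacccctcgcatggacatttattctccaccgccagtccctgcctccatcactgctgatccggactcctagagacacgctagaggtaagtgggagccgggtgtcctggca
Timp3: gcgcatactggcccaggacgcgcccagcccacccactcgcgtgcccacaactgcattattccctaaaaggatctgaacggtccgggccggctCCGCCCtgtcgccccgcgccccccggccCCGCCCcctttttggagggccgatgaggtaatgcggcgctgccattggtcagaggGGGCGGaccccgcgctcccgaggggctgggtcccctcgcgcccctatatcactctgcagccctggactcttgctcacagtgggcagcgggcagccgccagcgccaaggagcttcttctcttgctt
Adam19: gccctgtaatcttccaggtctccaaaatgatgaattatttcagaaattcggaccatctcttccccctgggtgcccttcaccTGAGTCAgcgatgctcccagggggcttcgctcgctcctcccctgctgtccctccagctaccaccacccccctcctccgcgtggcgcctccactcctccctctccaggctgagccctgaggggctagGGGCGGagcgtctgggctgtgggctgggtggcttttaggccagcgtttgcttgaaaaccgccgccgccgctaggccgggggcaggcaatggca
The Timp1 promoter held 1 GC box and Timp3 3 of them. Adam19 held 1 GC box and 1 AP-1 motif, whose first base is at -169 with the gene start counted as 0. The other windows hold no TGANTCA, which says only that these letters are not there.

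Mmp2, the gelatinase that cuts denatured collagens and type IV collagen of basement membranes, was the MMP with the largest difference between the mouse tissues. It read 359 and 366 in tips, 1043 and 1129 in stalks and 1019 and 1032 in mesenchyme. Stalk and mesenchyme lay close together and tips well below them. Tips were 2.91-fold lower than stalks (log2 difference -1.54, SE 0.055, adjusted p = 2.49e-07, limma) and 2.75-fold lower than mesenchyme (log2 difference -1.46, SE 0.055, adjusted p = 1.45e-07). Its second probe set gave -1.49 and -1.42. The stalk minus mesenchyme difference was 0.08 (SE 0.055, adjusted p = 0.427), which did not pass. Mmp9, the other gelatinase, was not tested and read 29.7 to 41.3 over the arrays.

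Mmp14, the membrane-type enzyme that activates pro-MMP2 at the cell surface, changed less. Its intensities were 499 and 514 in tips, 651 and 653 in stalks and 599 and 608 in mesenchyme. On this brightest of 3 probe sets, tips were lowest and stalks highest, and the groups did not overlap. The differences of tips were -0.35 from stalks (SE 0.053, adjusted p = 0.00123, limma) and -0.25 from mesenchyme (SE 0.053, adjusted p = 0.00647), and stalks against mesenchyme did not pass (adjusted p = 0.252). Both differences of tips fell short of the threshold with the arrays scaled to the same median (-0.42 and -0.24). Another Mmp14 probe set kept the same order without overlap. On the dimmest one tips (127.5 and 136.6) overlapped mesenchyme (143.6 and 134.6), and stalks read 158.4 and 145.4. Mmp16, another membrane-type enzyme, had 74.6 and 71.0 in tips, 116 and 122 in stalks and 139.7 and 144 in mesenchyme, and tips were lower than both (adjusted p = 0.00513 and 0.000629). Over the alternatives, which include the mean of its 4 probe sets, tips differed by -0.70 to -0.42 from stalks and by -0.95 to -0.57 from mesenchyme. Mmp11, a stromelysin activated inside the cell by furin, had 124 and 90.7 in tips, 189 and 178 in stalks and 206 and 198 in mesenchyme. It was also lower in tips than in both (log2 differences -0.71 and -0.84, adjusted p = 0.00524 and 0.00158). For Mmp7, Mmp17, Mmp23 and Mmp24 no comparison among the 3 tissues passed an adjusted p of 0.05. Rat RefSeq places 10 MMP genes side by side on chromosome 8, with collagenases, stromelysins and the matrilysin gene Mmp7 among them. Their order is Mmp13, Mmp12, Mmp1b, Mmp3, Mmp1, Mmp10, Mmp8, Mmp27, Mmp20 and Mmp7. Of the 9 members on the mouse array that belong to this run, Mmp7 alone was bright enough to be tested, and the other 8 did not exceed 49.7 on any array. On rat array A, 0 of 6 was tested and the highest reading was 83.8.

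**Figure D2:**
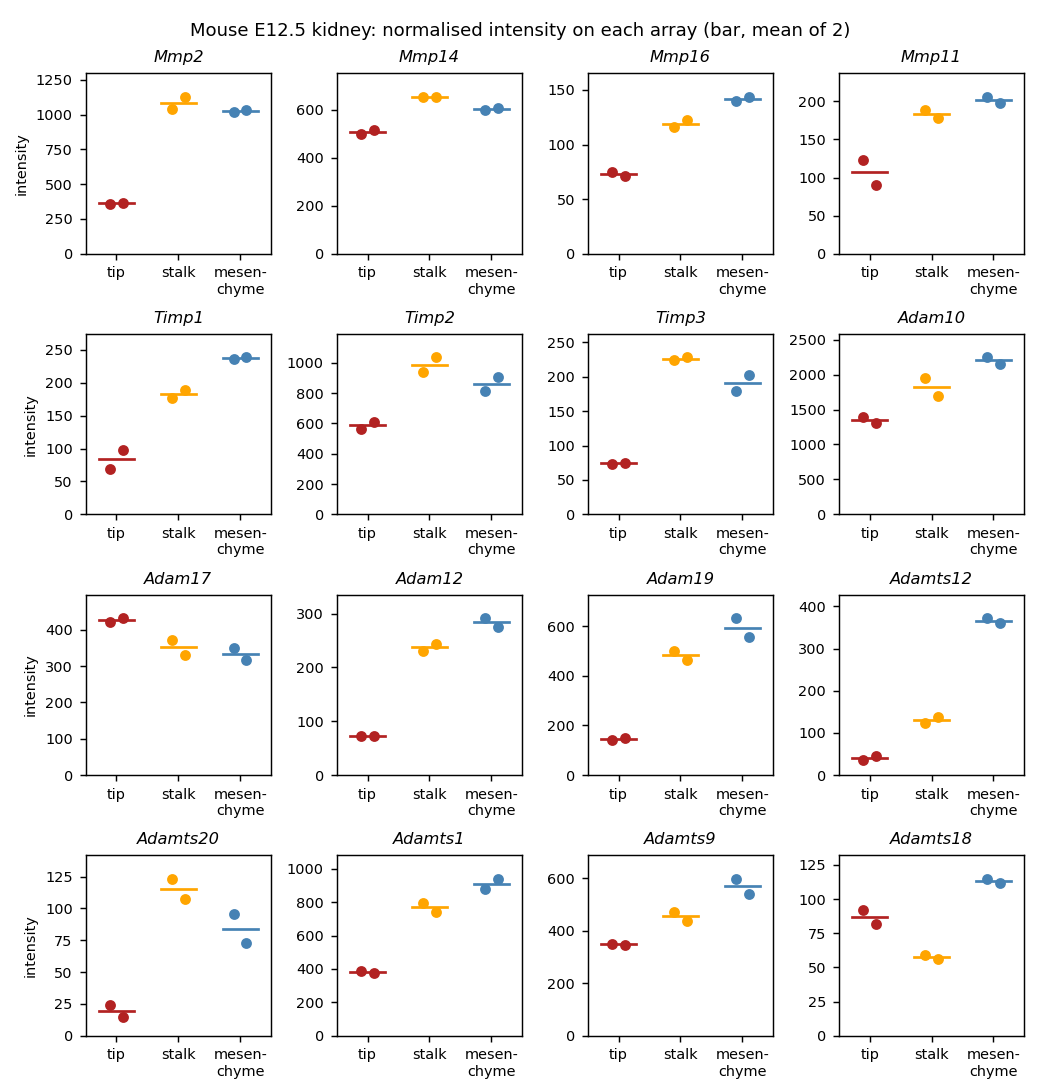
Normalised intensity of 16 mouse members on each of the 6 arrays (points; y axes start at 0), with the mean of the 2 arrays of each tissue as a bar. Tips are lowest for 14 of the panels, while Adam17 is highest in tips and Adamts18 is lowest in stalks.

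ADAM12 and ADAM19 are membrane-bound sheddases known from mesenchymal tissues, muscle and heart, and both were lower in tips. Adam12 read 72.2 and 73.2 in tips, 230.1 and 244 in stalks and 292 and 275 in mesenchyme. Tips differed by -1.51 from stalks (SE 0.099, adjusted p = 9.37e-06, limma) and by -1.75 from mesenchyme (SE 0.099, adjusted p = 1.75e-06). Adam19 read 139 and 148 in tips, 499 and 464 in stalks and 632 and 555 in mesenchyme. Its tips were 3.12-fold below stalks (log2 difference -1.64, SE 0.085, adjusted p = 2.12e-06) and 3.82-fold below mesenchyme (log2 difference -1.93, SE 0.085, adjusted p = 3.62e-07). For both genes the tip arrays stood apart from all 4 others, and the second probe set was called lower as well, with differences from stalks and from mesenchyme of -1.25 and -1.26 for Adam12 and of -1.21 and -1.28 for Adam19. Stalks against mesenchyme did not pass for either (adjusted p = 0.165 and 0.0581).

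The 2 main sheddases, ADAM10, which cuts Notch receptors and cadherins, and ADAM17, which releases TNF and EGF receptor ligands, moved in opposite directions by small amounts. Adam10 had intensities of 1396 and 1314 in tips, 1957 and 1686 in stalks and 2245 and 2158 in mesenchyme. It was lower in tips than in stalks (log2 difference -0.42, SE 0.069, adjusted p = 0.00202, limma) and mesenchyme (log2 difference -0.69, SE 0.069, adjusted p = 6.55e-05), and lower in stalks than in mesenchyme (log2 difference -0.27, SE 0.069, adjusted p = 0.0316). Its 2 other tested probe sets were lower in tips too, with differences of -0.42 and -0.72 from stalks and of -0.65 and -0.96 from mesenchyme. Adam17 had 420.4 and 432 in tips, 373 and 331 in stalks and 349 and 317 in mesenchyme. It was higher in tips than in stalks (log2 difference 0.27, SE 0.082, adjusted p = 0.0397) and mesenchyme (log2 difference 0.34, SE 0.082, adjusted p = 0.0112). Both other Adam17 probe sets read higher in tips, by 0.25 and 0.21 against stalks (adjusted p = 0.113 and 0.0779, not past the threshold) and by 0.35 and 0.36 against mesenchyme (0.029 and 0.00758). The differences of both genes were below 2-fold. That of Adam17 from stalks no longer passed without the second tip array (0.25) or without the first or second stalk array (0.35 and 0.19), nor with the values as deposited (0.21). Its difference from mesenchyme no longer passed without the second mesenchyme array (0.28) or with the values as deposited (0.36).

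The rest of the ADAMs split by known site of expression. Of 9 catalytic ADAMs found in many tissues, 8 were tested, and Adam8, Adam9, Adam15 and Adam33 passed in no comparison. Adam8, a leukocyte-associated member, read 56.8 and 61.2 in tips, 68.4 and 53.5 in stalks and 57.8 and 66.0 in mesenchyme. The non-catalytic neural members Adam11, Adam22 and Adam23, which act in adhesion at neurons, read 36.0 to 126 over all arrays. Adam23 was lower in tips than in mesenchyme, at 36.0 and 36.9 in tips against 75.5 and 71.5 in mesenchyme (log2 difference -0.77, SE 0.13, adjusted p = 0.00153, limma). Over the alternatives, which include the mean of its 3 probe sets, this difference was -0.99 to -0.34. The tip mean was under the intensity for testing, so that some difference was built in. The summed intensity of 5 neuronal and neural crest markers was 229.8 to 230.5 in tips, 364 to 367 in stalks and 695 to 806 in mesenchyme, and its part in the Adam23 difference was not tested. Of 16 ADAMs known mainly from testis or epididymis, 2 were tested (Adam4 and Adam21), without a difference past the threshold, and the other 14 read 43.7 or less. On rat array A, 8 genes of that kind were measured and 2 tested (Adam1a and Adam18), also without one.

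Adamts12, which is known to cut cartilage oligomeric matrix protein, was the member with the widest range. It read 36.3 and 44.6 in tips, 124 and 137 in stalks and 372 and 359.9 in mesenchyme, so that all 3 tissues were separate. Tips were 6.79-fold lower than mesenchyme (log2 difference -2.76, SE 0.12, adjusted p = 4.26e-07, limma) and 2.6-fold lower than stalks (log2 difference -1.38, SE 0.12, adjusted p = 6.58e-05), and stalks were 2.61-fold lower than mesenchyme (log2 difference -1.38, SE 0.12, adjusted p = 0.000104). The tip mean was under the intensity of 49.5 used for testing, and a pseudocount of 64 gave -2.04 from mesenchyme. A second probe set read 7.68 to 10.6 on all arrays, and with the mean of both probe sets the calls against stalks (-0.72) and of stalks against mesenchyme (-0.68) ended, and the difference of tips from mesenchyme was -1.40. A pseudocount of 64 also ended the call against stalks (-0.90). Adamts7, its closest relative, was lower in tips (52.7 and 47.7) than in mesenchyme (77.3 and 70.5), with a difference of -0.44 (adjusted p = 0.0305).

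The proteoglycanases cut versican and aggrecan, and 6 of the 7 were tested. Adamts20 was near the floor in tips, at 24.4 and 14.3, against 123 and 107 in stalks and 95.3 and 72.5 in mesenchyme. Its differences were -1.91 from stalks (SE 0.18, adjusted p = 9.80e-05, limma) and -1.504 from mesenchyme (SE 0.18, adjusted p = 0.000251), and a pseudocount of 64 ended the second call (-0.83), as it did for Timp3 (-0.88). The same pseudocount gave -1.11 for Adamts20 against stalks and a pseudocount of 1 gave -2.56 and -2.09 in the 2 comparisons, and with the filter at the 75th percentile the gene was not tested. Adamts20 works with Adamts9 in mouse development, where it is known for the white belt of the coat. Adamts1, which is required for normal urinary tract development in mice, read 390.2 and 374 in tips, 793 and 742 in stalks and 878 and 940.2 in mesenchyme. It was lower in tips than in mesenchyme by more than 2-fold (log2 difference -1.22, SE 0.061, adjusted p = 8.61e-07) and just missed that fold against stalks (log2 difference -0.98, SE 0.061, adjusted p = 7.10e-06). Against stalks, the deposited values without quantile normalisation gave -1.01 and a call. Scaling to the same median, a pseudocount of 1 and a test against 1.5-fold gave a call there too. With 1 array left out the difference from stalks was -1.03 to -0.93, on both sides of 2-fold. Adamts9 read 351 and 344 in tips, 471 and 438 in stalks and 598 and 540.4 in mesenchyme. Tips were lower than stalks (-0.37, adjusted p = 0.00500) and mesenchyme (-0.68, adjusted p = 9.69e-05), but its 2 other probe sets gave 0.44 and 0.16 against stalks and did not pass, and the mean of all its probe sets gave 0.08 from stalks and -0.11 from mesenchyme. Adamts15 and Adamts4 were lower in tips than in mesenchyme (adjusted p = 0.00870 and 0.0370), while Adamts5, the neighbour of Adamts1 on rat chromosome 11, passed in no comparison.

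Adamts18, a secreted protease whose loss is known to alter kidney, lung and lacrimal gland branching in mice, read lowest in stalks. Its intensities were 92.3 and 81.5 in tips, 59.3 and 56.4 in stalks and 115 and 111 in mesenchyme, and the 3 groups did not overlap. Tips were higher than stalks (log2 difference 0.48, SE 0.13, adjusted p = 0.0231, limma) and stalks lower than mesenchyme (log2 difference -0.81, SE 0.13, adjusted p = 0.00322), while tips and mesenchyme did not differ past the threshold (adjusted p = 0.0826). Over the alternatives, the mean of its probe sets included, the first difference was 0.31 to 0.58 and the second -0.96 to -0.50. Adamts16, a relative of Adamts18 expressed in the developing kidney and gonad, was read differently by its 2 probe sets. The brighter one gave 103 and 169 in tips, 88.9 and 95.0 in stalks and 103 and 138 in mesenchyme, and passed in no comparison. The other gave 191 and 131 in tips, 46.0 and 45.8 in stalks and 40.6 and 41.3 in mesenchyme. With it, tips were higher than stalks (log2 difference 1.495, adjusted p = 0.000282) and mesenchyme (1.61, adjusted p = 0.000107), both past 2-fold. Which transcripts the 2 probe sets read was not tested. Adamts6 was lower in tips (65.2 and 55.6) than in stalks (104 and 97.0) and mesenchyme (110.2 and 117), with differences of -0.61 and -0.77 (adjusted p = 0.00838 and 0.00188). Its alternatives gave -0.73 to -0.37 from stalks and -0.90 to -0.42 from mesenchyme. Adamts10, Adamtsl2 and Adamtsl5 passed in no comparison.

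Genes that act on these proteases were read from 5 lists. Of 11 tested genes for MMP activation and docking at the cell surface, 3 were called lower in tips than in stalks and 0 higher, beside 3.63% and 0.953% of all tested probe sets, and the same numbers held against mesenchyme, beside 4.27% and 3.9%. They were Plat, the tissue plasminogen activator, Ddr2, a collagen receptor, and Cd44, a hyaluronan receptor that docks MMPs. Plat read 124 and 121 in tips, 636 and 609 in stalks and 1146 and 1121 in mesenchyme (log2 differences -2.20 and -3.05, adjusted p = 5.38e-08 and 3.92e-09, limma), and the mean of its probe sets gave -1.09 and -1.59. Ddr2 read 28.9 and 19.7 in tips, 197 and 203 in stalks and 222 and 209 in mesenchyme (-2.43 and -2.53), with -1.34 and -1.34 for the mean of its probe sets, -1.58 and -1.67 at a pseudocount of 64 and -3.01 and -3.12 at 1. Cd44 read 25.0 and 14.3, 60.1 and 65.6 and 128 and 97.0 in the same tissues. Its call against stalks ended without the second tip array (-0.96), with a pseudocount of 64 (-0.60), with the mean of its probe sets (-0.48) and in a test against 1.5-fold (adjusted p = 0.137). Its call against mesenchyme ended with the mean of its probe sets (-0.88), and the difference there was -1.07 at a pseudocount of 64 and -2.50 at 1. With the filter at the 75th percentile Cd44 was not tested. The tip means of Ddr2 and Cd44 were under the intensity for testing, so that some difference was built in. Between stalks and mesenchyme 0 of the 11 were called, beside 0.426% of tested probe sets called lower and 2.34% higher.

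Reck, a membrane-anchored inhibitor of MMP2, MMP9 and MMP14, followed the TIMPs in being lowest in tips. It read 229.7 and 211 in tips, 744 and 662 in stalks and 703 and 708 in mesenchyme, and tips were 3.04-fold lower than stalks and 3.05-fold lower than mesenchyme (adjusted p = 1.06e-06 and 4.72e-07, limma). It was 1 of 4 tested genes of the list of other protease inhibitors and clearance genes. Of these it was the single one called in tips against stalks (called lower, 3.63% of all tested probe sets). Against mesenchyme Spock2, a proteoglycan of the testican family on the same list, was called lower too. Its action on the proteases was not measured here. It read 91.4 and 80.8 in tips, 151 and 144 in stalks and 367 and 484 in mesenchyme. Both bud parts differed from mesenchyme (-2.10 and -1.42, adjusted p = 4.44e-06 and 0.000161, limma). The mean of its probe sets ended the stalk call (-0.84) and gave -1.19 in tips. Of all tested probe sets, 4.27% were called lower in tips than in mesenchyme and 0.426% in stalks. Tfpi2, a secreted serine protease inhibitor, went the other way, with 57.8 and 47.2 in tips, 28.8 and 23.9 in stalks and 10.4 and 12.2 in mesenchyme. It was called higher in tips than in mesenchyme (log2 difference 1.32, SE 0.14, adjusted p = 0.000102), a call that ended without the first tip array, when the gene was no longer bright enough to be tested, with the filter at the 75th percentile, again untested, and with a pseudocount of 64 (0.63). A pseudocount of 1 gave 2.12. Only its tip mean reached the intensity for testing, so that some difference was built in, and 3.9% of all tested probe sets were called higher in this comparison.

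ADAM10 leaves the endoplasmic reticulum and finds its substrates together with tetraspanins of the C8 group, and ADAM17 with the inactive rhomboids encoded by Rhbdf1 and Rhbdf2. Of 7 tested genes of this trafficking list, 0 were called in tips against stalks and 2 were called higher in tips than in mesenchyme, both of them ADAM10 partners, beside 3.9% of all tested probe sets called higher. Tspan15 read 557 and 591 in tips, 290.2 and 321 in stalks and 148 and 226 in mesenchyme (log2 difference 1.57, SE 0.16, adjusted p = 7.20e-05, tips against mesenchyme, limma). Tspan33 read 348 and 336 in tips, 187 and 179 in stalks and 65.6 and 50.9 in mesenchyme, and was higher than mesenchyme in tips (log2 difference 2.28, SE 0.12, adjusted p = 1.32e-06) and in stalks (log2 difference 1.43, SE 0.12, adjusted p = 7.94e-05). The mean of its probe sets ended the stalk call (0.56) and gave 1.12 in tips. In stalks it was 1 of the 7 called higher, beside 2.34% of tested probe sets. The order of both genes, tips highest and mesenchyme lowest, was the reverse of the order of Adam10 itself. Tspan5 was lower in tips than in mesenchyme (-0.55, adjusted p = 0.00527). Rhbdf1 was higher in tips and in stalks than in mesenchyme (0.67 and 0.57, adjusted p = 0.000319 and 0.00221), and for Rhbdf2 no comparison passed.

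Substrates of the ADAMTS proteases and the machinery for their secretion held 10 tested genes, of which 4 were called lower in tips than in stalks, 3 lower in tips than in mesenchyme and 0 between stalks and mesenchyme, beside 3.63%, 4.27% and 0.426% of all tested probe sets called lower. Vcan, which encodes versican, read 244 and 203 in tips, 2929.8 on each array of stalks and 2072 and 2032 in mesenchyme, and tips were 12.3-fold lower than stalks and 8.67-fold lower than mesenchyme (adjusted p = 1.06e-08 and 7.97e-09, limma). The mean of its 8 probe sets gave log2 differences of -1.45 and -1.14 where the brightest gave -3.63 and -3.12. The small proteoglycan genes Dcn and Bgn were lower in tips as well, with differences of -2.37 and -1.59 from stalks and of -2.17 and -1.30 from mesenchyme. For Dcn the mean of its probe sets gave -1.14 and -1.03, and a pseudocount of 64 gave -1.79 from stalks. Fbln1, a fibulin and cofactor of ADAMTS1, was called lower in tips than in stalks alone (-1.21), and the mean of its probe sets ended that call (-0.59). Among 4 tested genes of other metzincins and their enhancers, 1 was called, lower in tips than in stalks and in mesenchyme, beside 3.63% and 4.27% of tested probe sets. Pcolce, the enhancer of procollagen C-proteinase, read 198 and 181 in tips, 1353 and 1377 in stalks and 1226 and 1137 in mesenchyme (-2.75 and -2.54). The 8 stromal markers were all called lower in tips against both other tissues, with a median of -3.21 against stalks and -2.86 against mesenchyme, and their part in the differences of the proteases, inhibitors and substrates was not tested.

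**Figure D3:**
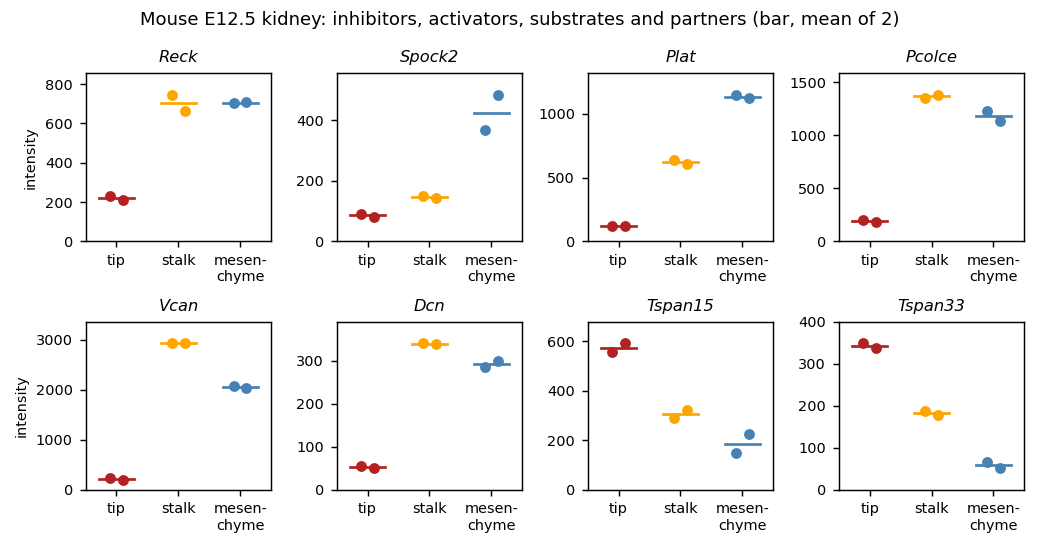
Normalised intensity of 8 genes that inhibit, activate, are cut by or accompany the proteases, on each mouse array (points; y axes start at 0; bars, mean of 2). Reck, Spock2, Plat, Pcolce, Vcan and Dcn are lowest in tips, and Tspan15 and Tspan33 are highest there.

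In rat, whole buds were set against mesenchyme on 3 designs that carry different probe sets. Of the members, 10 of 25 were tested on array A, 6 of 9 on array B and 8 of 11 on array C. On array A 1 member, Mmp2, was called lower in buds, beside 3.02% of all tested probe sets, and on arrays B and C 0 were called lower, beside 2.74% and 2.4%. None was called higher on the 3 designs, where 2.77%, 3.06% and 2.23% of probe sets were. On array A, 8 stromal markers summed to 1129.8 to 1239.6 in buds against 4375 to 4955 in mesenchyme. The contrast was smaller for the 4 stromal markers on array C, at 1600.1 to 1906 in buds against 2533.6 to 2597.5 in mesenchyme. On array A, 6 epithelial markers summed to 3348 to 3954 in buds against 735 to 810.2 in mesenchyme. The part of these markers in the results was not tested. At an adjusted p under 0.05 of any size, 1, 2 and 0 members, as represented, were lower in buds (5.83%, 7.97% and 5.17% of probe sets) and 0 higher (5.79%, 9.51% and 6.02%). A second probe set of Mmp17 on array B was higher in buds at that threshold and is described with the other observations. At an unadjusted p under 0.05 limma gave 5, 2 and 3 members in either direction. The share of all tested rat probe sets at that unadjusted threshold was not computed, so these counts too stand without a background.

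Mmp2 read 155 and 162 in rat buds and 490.1 and 445 in rat mesenchyme. Buds were 2.77-fold lower (log2 difference -1.47, SE 0.13, adjusted p = 0.000710, limma), and the difference was -1.49 without the second bud array. A second Mmp2 probe set read 157 and 133 in buds and 162 and 119.8 in mesenchyme and showed no such difference (0.05), so that the mean of both ended the call (-0.71). Mmp14 was lower in buds on arrays A and C without passing the adjusted test. It read 901 and 689.5 in buds against 1092 and 1236 in mesenchyme on array A (log2 difference -0.55, SE 0.17, adjusted p = 0.0873), and 379 and 566 against 947 and 807 on array C (log2 difference -0.89, SE 0.21, adjusted p = 0.0615). Without the second bud array these differences were -0.35 and -1.16, and the array C difference was then called. Mmp11 read 247 and 276 in buds and 196 and 161 in mesenchyme, higher in both bud arrays (log2 difference 0.52, SE 0.15, adjusted p = 0.0731) without passing the threshold, and the difference was 0.44 without the second bud array.

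Timp1, Timp2 and Timp3 read lower in rat buds on average, and 1 of these differences passed the adjusted test. Timp1 read 419 and 404 in buds against 571 and 494 in mesenchyme on array A, and 531 and 394 against 712 and 709 on array C. Neither difference passed (-0.36 and -0.62, adjusted p = 0.155 and 0.0789, limma), and they were -0.33 and -0.42 without the second bud array. Timp2 on array A read 439 and 448 in buds and 579 and 490.4 in mesenchyme, with a difference of -0.26 (adjusted p = 0.303), or -0.27 without the second bud array. Timp3 read 154 and 148 in buds against 199 and 208 in mesenchyme on array B, where it was lower (log2 difference -0.40, SE 0.10, adjusted p = 0.0446), and its brighter probe set on array C gave -0.40 (adjusted p = 0.0923), or -0.33 without the second bud array. Its probe set on array A was too dim to be tested, at 96.7 and 77.9 in buds and 115 and 93.1 in mesenchyme, and the groups overlapped there. The array B difference no longer passed without the second bud array (-0.37) or either mesenchyme array (-0.43 and -0.37). Timp4 was not tested on array C, at 83.8 to 105 over the arrays.

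Adam19 read 205 and 205 in rat buds and 376 and 412 in rat mesenchyme on array B. It was lower in buds by slightly less than 2-fold (log2 difference -0.89, SE 0.10, adjusted p = 0.00333, limma), and the difference was -0.88 without the second bud array. Adam10 read 132 and 53.9 in buds and 195 and 213 in mesenchyme on array A. Both bud arrays lay below mesenchyme, but the second bud labeling decided the size of the difference (log2 difference -1.11, SE 0.33, adjusted p = 0.0801), which was -0.57 without it and -1.66 without the first. The bud mean was under the intensity for testing, so that some difference was built in. Adam17 read 211 and 145 in buds and 205 and 249 in mesenchyme, with overlapping groups and a difference of -0.34, or -0.09 without the second bud array. Adamts1 on array C, at 104 and 132 in buds and 105 and 124 in mesenchyme, also overlapped, with a difference of 0.03, or -0.12 without the second bud array. Adamts7 at 255 and 286 in buds against 311 and 345 in mesenchyme did not pass (-0.26, adjusted p = 0.211), and its difference was -0.34 without that array.

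**Figure D4:**
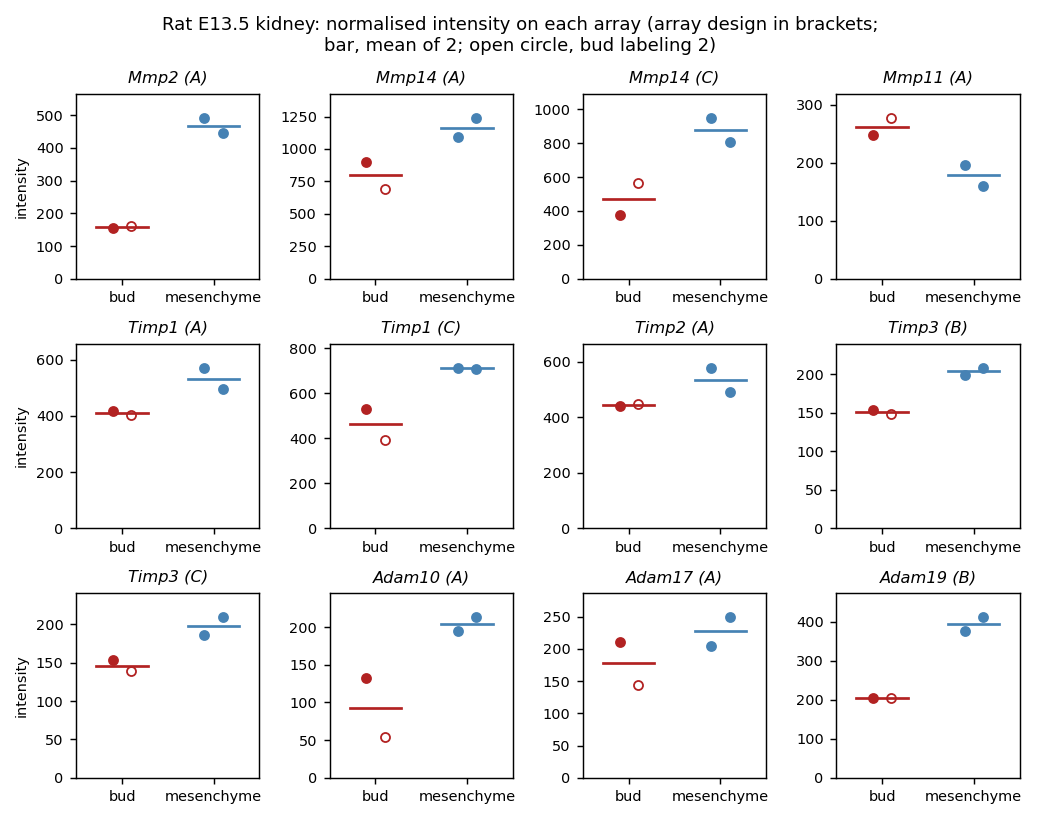
Normalised intensity of rat members in whole buds (red) and mesenchyme (blue) on each array, with the array design in brackets, bars at the mean of 2 arrays and y axes from 0; open circles are the second bud labeling, whose Gapdh 3' to 5' ratio was 4.26 to 5.28. The Mmp11 panel shows buds above mesenchyme and the Adam17 panel shows overlapping groups.

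Rat whole buds hold tips and stalks together, so the mean of mouse tips and stalks was set beside them. In mouse, this mean was called lower than mesenchyme for Adam19 (log2 difference -1.11, SE 0.073, adjusted p = 7.03e-06, limma) and Adamts12 (log2 difference -2.07, SE 0.11, adjusted p = 1.53e-06, or -1.04 with the mean of its probe sets), beside 1.77% of tested probe sets called lower, and 0 members were called higher, beside 2.88%. The mean of all probe sets ended the Adam19 call (-0.90). Adam12 fell just short of a call, at 1.998-fold lower in the bud mean (adjusted p = 3.76e-05, limma). At an adjusted p under 0.05 of any size 15 members differed, all lower, beside 12.9% of tested probe sets lower and 12.1% higher. Of these 15, 6 no longer passed with 1 array left out (Adamts6, Adamts18, Adamts20, Mmp11, Mmp16 and Timp3). Of the members, 18 genes were tested in both species, in 21 pairs of the mouse array with a rat design. The difference was below 0 in both species for 14 pairs, below 0 in mouse alone for 3 and below 0 in rat alone for 4. Those 4 include Mmp17 (0.19 in mouse and -0.07 in rat), whose other array B probe set read higher in rat buds. Over all 7660 such pairs tested in both species, from 6396 genes, it was below 0 in both for 2328 (30.4%), in mouse alone for 1893 and in rat alone for 1318, and pairs of 1 gene share its mouse value. Adam19 was at -1.11 in mouse and -0.89 in rat, and Timp3 at -0.48 in mouse and -0.40 and -0.40 in rat. Mmp2 was at -0.69 in mouse and -1.47 in rat, and Mmp14 at -0.07 in mouse and -0.55 and -0.89 in rat. Mmp11 had opposite signs, with all bud arrays (tips and stalks in mouse) on 1 side of mesenchyme in each species. The species differ in stage, array and dissection as well, and the difference between them was not tested for any gene.

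**Figure D5:**
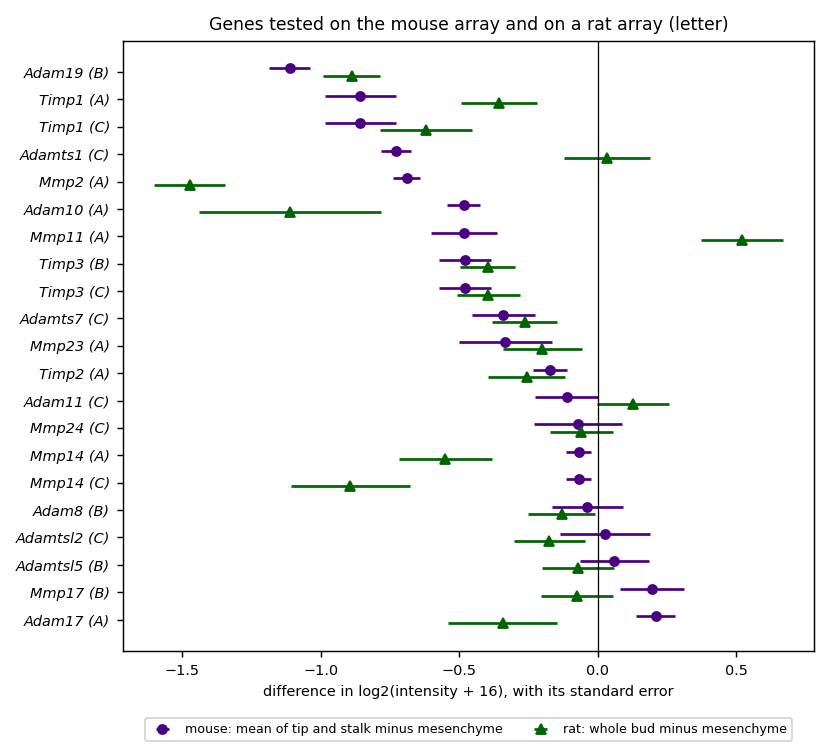
Bud minus mesenchyme difference in log2(intensity + 16) for the 21 gene and design pairs tested in both species, with standard errors (limma, 2 arrays per tissue and design); circles are mouse (mean of tip and stalk) and triangles rat whole bud. Adam19, Timp1, Timp3, Mmp2 and Adam10 lie left of 0 in both, and Mmp11 lies left of 0 in mouse and right of 0 in rat.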

How the data were processed

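RNA of 5 dissected tissues was hybridised to 6 mouse and 12 rat Affymetrix arrays, with 2 labelings of each pooled RNA, per the labels. The 4 deposited tables hold 1 linear intensity per probe set and array. How the authors scaled and summarised these intensities is not given in the sources used here. Intensities were quantile normalised within each table, control probe sets (64 in mouse, 59 in each rat table) were left out, and log2(intensity + 16) was fitted with limma 3.58.1 in R 4.3.3 (lmFit and eBayes with an intensity trend, no covariates). All 6 mouse arrays entered 1 fit and the 4 arrays of each rat design another, and Benjamini-Hochberg adjustment ran over the 23937 mouse and 4629, 4667 and 4666 rat probe sets tested, across 7 comparisons. Rat probe sets were tested from a tissue mean of 111, 118 and 115 on arrays A, B and C. The scripts were tested on simulated data.

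Gene symbols came from GEO's platform annotation, and a probe set with several symbols was not used. Named with values on each array were all called members, the TIMPs, Mmp2, Mmp14, Adam10 and Adam17, and the called genes of the companion lists, at most 4 a list. Of these list genes, Dcn, Bgn and Fbln1 in mouse and Pcolce and Vcan in rat are given as differences only. Mmp11, Mmp16, Adam8, Adam23, Adamts6, Adamts7, Adamts9, Adamts16 and Adamts18 were added after their values were seen. Tspan5, Rhbdf1 and Rhbdf2 were also added then. The members, lists and thresholds were chosen with earlier results of these data known. Alternatives covered the normalisation, pseudocount, filter, trend, labeling number, test, probe sets and each array left out.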

Additional observations from a re-analysis of the deposited data

Results flagged for a closer look

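Among members tested in both species, Mmp11 was the single one with opposite signs and no overlap of bud and mesenchyme arrays in either. In mouse, all tip and stalk arrays lay below both mesenchyme arrays. In rat, both bud arrays lay above both mesenchyme arrays. The mean of mouse tips and stalks minus mesenchyme was -0.48 on the log2 scale (SE 0.12), and rat buds minus mesenchyme was 0.52 (SE 0.15). The mouse difference (adjusted p = 0.0180, limma) no longer passed without either stalk array or either mesenchyme array, with values as deposited (-0.43) or with arrays scaled to the same median (-0.42), and the rat difference did not pass (adjusted p = 0.0731) and was 0.44 without the second bud array. Each species had 1 Mmp11 probe set. The difference between the species was not tested.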

How the results depend on the processing

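The counts of members called lower in tips against stalks (7) kept within 1.5 times of their value under all alternatives, and ranged over 7 to 7 when 1 array was left out, as did those in tips against mesenchyme (8, and 8 to 9). The other ranges with 1 array left out were 1 to 1 for stalks against mesenchyme, 2 to 3 for the mouse bud mean, and 1 to 2, 0 to 0 and 0 to 1 on rat arrays A, B and C, where the lone array of a tissue is assumed to vary like the other tissue. Rat array A gave 2 without its first bud array (Mmp2 and Adam10), and array C 1 without its second bud array (Mmp14). The mean of all probe sets of a gene gave 0 members for stalks against mesenchyme instead of 1, 1 for the mouse bud mean instead of 2 and 0 on rat array A instead of 1, and a pseudocount of 64 gave 1 for the bud mean. With the labeling number as a replicate block, rat array A gave 2 members instead of 1, Adam10 being added (adjusted p = 0.0281). In mouse the block leaves the differences as they are and all tested probe sets past 2-fold had an adjusted p under 0.05 without it, so it could add or end no mouse call. At an adjusted p under 0.05 of any size it gave 5425 probe sets instead of 3131 for stalks against mesenchyme and 936 instead of 538 on rat array A, and 10 members instead of 5 for stalks against mesenchyme. Deviations of arrays with the same labeling number correlated at 0.424 to 0.566 in mouse and 0.221 to 0.308 in rat, but the labels do not say that a number marks a shared day, so the numbers were not taken as pairs.

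Of the alternatives for single members, 1758 kept direction and call, 15 ended a call and 15 added one, and none turned a called direction; for genes of the lists these were 1489, 25 and 16. Besides those given with the results, Mmp11 was called lower in tips than in mesenchyme without the first tip array (-1.02), and Adam19 lost its bud mean call at a pseudocount of 64 (-0.96). Adam12 was called lower in the bud mean with a pseudocount of 1 and in a test against 1.5-fold. With 1 array left out its bud mean difference was -1.05 to -0.96, on both sides of 2-fold. Over all probe sets, a pseudocount of 64 gave 671 calls instead of 1098 in tips against stalks, 1266 instead of 1954 in tips against mesenchyme, 392 instead of 663 in stalks against mesenchyme, 658 instead of 1112 for the bud mean and 172 instead of 271 on rat array B. The filter at the 75th percentile gave 1283 for tips against mesenchyme and 176 on array B. A test against 1.5-fold gave 157 instead of 268 on array A, 164 on array B and 124 instead of 216 on array C. Array A gave 477 without its first bud array, and array C 361 without its first bud array and 76 and 82 without either mesenchyme array. The mean of all probe sets, over fewer features, gave 461, 887, 317, 496, 144, 146 and 109 calls in the order tips against stalks, tips against mesenchyme, stalks against mesenchyme, bud mean and arrays A, B and C. Causes were not tested. Members near background, such as Adamts20 in tips, are limited by the offset added before taking logs.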

Other observations

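In rat, the genes that act on the proteases were measured in part. Plat was called lower in buds on array A, at 26.9 and 28.1 in buds against 318 and 294 in mesenchyme (log2 difference -2.89, SE 0.15, adjusted p = 9.94e-05, limma), and the difference was -2.02 at a pseudocount of 64. Spock2 was called lower on both designs that carry it, at 106 and 118 in buds against 529.5 and 596 in mesenchyme on array A and 96.0 and 102 against 1599.8 and 1739 on array C, with differences of -2.18 and -3.87, and -2.71 for the mean of its array C probe sets. Reck on array C read 83.2 and 101 in buds and 319 and 293 in mesenchyme (log2 difference -1.58, SE 0.12, adjusted p = 0.00251), and leaving out either mesenchyme array ended its call (-1.53 and -1.64). Pcolce and Vcan were called lower in buds on array A (-1.16 and -1.51). Tspan15 read 202 and 163 in rat buds and 214 and 215 in rat mesenchyme on array B (-0.22, adjusted p = 0.272), a sign opposite to the mouse bud mean (1.13). Without the second bud array the differences were -2.91 for Plat, -2.23 and -3.88 for Spock2 on arrays A and C, -1.69 for Reck, -1.19 for Pcolce, -1.61 for Vcan and -0.09 for Tspan15. The bud means of Plat, Reck, Vcan and Spock2 on array C were under the intensity for testing, so that some difference was built in. Tspan33 was too dim on array C to be tested.

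The 2 rat Mmp17 probe sets on array B differed. The brighter one read 223 and 179 in buds and 218 and 205 in mesenchyme, and the other 213 and 288 in buds and 128 and 147 in mesenchyme (0.79, adjusted p = 0.0227, limma). With 1 array left out, the brighter one gave -0.22 to 0.07. For the other, the reading of 288 is of the second bud labeling, and its difference without that array was not computed.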
